A study of Mus musculus with 36 samples.

Results

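Here 10 genes of fibroblast growth factor 9 (FGF9) signalling were followed in germ cells and supporting cells of the fetal mouse gonad. They are the ligand Fgf9, the receptors Fgfr1 and Fgfr2, the ETS transcription factors Etv1, Etv4 and Etv5, and the feedback inhibitors Dusp6, Spry1, Spry2 and Spry4. The genes were chosen by name as parts of this pathway. All 10 of 10 were found among the 19938 named genes of the array, and all 10 were above the 25th percentile of every one of the 35 arrays used. The series holds 36 Affymetrix arrays, 3 for each of 12 groups set by cell type, by sex (XX or XY) and by stage. Per the labels TS13 precedes sexual differentiation, TS24 falls within it and TS34 follows it.

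The gonads of each sex were pooled, dissociated with trypsin, stained with DAPI and sorted by FACS, so that every array holds RNA of many fetuses. Germ cells came from Oct4 reporter mice of mixed background descended from C57BL/6NJ. XX supporting cells at all stages, and XY supporting cells at TS13, came from Tg(Sry-EGFP)92Ei mice descended from CD-1. XY supporting cells at TS24 and TS34 came from Tg(Sox9-cre/ERT2)1Msan/J mice descended from C57BL/6, in which the reported gene was Sox9. XX and XY supporting cells were therefore of the same mouse line at TS13 only. At TS24 and TS34 sex and mouse line cannot be told apart, nor can stage and line between TS13 and TS24 in XY supporting cells, nor cell type and line between germ and supporting cells. The p-values rest on 1 estimate of each gene's spread within groups, shared over all 12 groups and drawn towards that of other genes. They do not measure the spread of the compared arrays alone. Nothing in the labels says whether the replicates of a group were separate sorts, so this spread may be technical.

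The array labelled XX germ cells at TS24, replicate 3, went against its label and was left out. It read 5.07 for Pou5f1 and 5.04 for Ddx4, which define germ cells, and 11.19 for Wt1, which marks supporting cells. The other XX germ arrays at TS24 read 10.67 to 10.73 for Pou5f1 and 11.29 to 11.33 for Ddx4. Calls of the 10 genes that change when it is put back are given beside the results concerned. On the remaining arrays these marker lists were apart between the cell types: the mean of 8 germ cell genes was 9.23 to 10.14 in germ arrays and 5.83 to 6.80 in supporting arrays, and the mean of 7 supporting cell genes was 6.25 to 7.16 and 8.69 to 10.22. All results on XX germ cells at TS24 rest on 2 arrays, which differed in somatic genes, with Wt1 at 7.18 and 8.19 and Nr2f2 at 6.45 and 8.12. Amh, a defining Sertoli cell gene, stood at 5.78 to 6.31 in XY supporting cells at TS13. At TS24 and TS34 it stood at 9.66 to 10.18 there. The pregranulosa gene Foxl2 stayed at 6.57 or below in XX supporting cells. Over whole lists the sexes were apart. The mean of 6 pregranulosa genes was 9.21 to 9.9 on XX and 6.85 to 7.65 on XY supporting arrays. That of 6 Sertoli genes was 7.25 to 7.6 and 8.81 to 10.7. All values are log2 expression, and a difference of 1 is a 2-fold change. They are probe set readings, so levels are compared between samples of a gene and not between genes.

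FGF9 is a secreted growth factor that binds FGF receptors together with heparan sulfate on the cell surface. Receptor activation runs through RAS and the ERK kinases, and the ETS factors of the PEA3 family (Etv1, Etv4 and Etv5), the ERK phosphatase Dusp6 and the Sprouty proteins are widely used as transcriptional readouts of it. Dusp6 and the Sproutys in turn damp the pathway. In the mouse, Fgf9 is needed in the early XY gonad to keep Sox9 on and the ovarian factor Wnt4 off, and it acts on XY germ cells to support their survival and oppose entry into meiosis.

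Fgf9 itself was high in a single cell type of a single sex. In XY supporting cells it read 10.42, 10.52 and 10.28 at TS13, 10.28, 9.75 and 9.85 at TS24, and 8.69, 8.66 and 9.16 at TS34. In XX supporting cells it read 6.77, 6.70 and 6.78, then 6.70, 6.61 and 6.67, then 6.77, 6.66 and 7.04. The germ arrays of both sexes lay between 6.26 and 7.13. Every XY supporting array was thus above every array of the other 9 groups, and among those 9 groups only XX supporting cells at TS13 and TS24 had neighbouring ranges that did not overlap. In these bulk samples fewer cells of a type and less RNA per cell cannot be told apart.

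The XY excess of Fgf9 in supporting cells was 3.66 ± 0.19 (SE, n = 3 and 3; 12.6-fold, limma adjusted p = 1.27e-20) at TS13, within 1 mouse line. It was 3.30 ± 0.19 (9.84-fold, limma adjusted p = 1.01e-19) at TS24 and 2.01 ± 0.19 (4.03-fold, limma adjusted p = 2.61e-12) at TS34. The change of this difference from TS13 to TS34 was -1.65 ± 0.27 (limma adjusted p for the change of the sex difference = 1.49e-05). That narrowing lay on the XY side, where Fgf9 fell by 1.12 from TS24 to TS34 (limma adjusted p = 2.68e-04). The step from TS13 to TS24 in XY supporting cells was -0.45 ± 0.19 (limma adjusted p = 0.0996), and it passed the test after quantile normalization at -0.77, after median centring at -0.61 and without replicate 1 of XY supporting cells at TS24 at -0.61. In germ cells the sex difference of Fgf9 was 0.25 ± 0.21 at TS24 and 0.28 ± 0.19 at TS34 (limma adjusted p = 0.615 and 0.431).

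**Figure D1:**
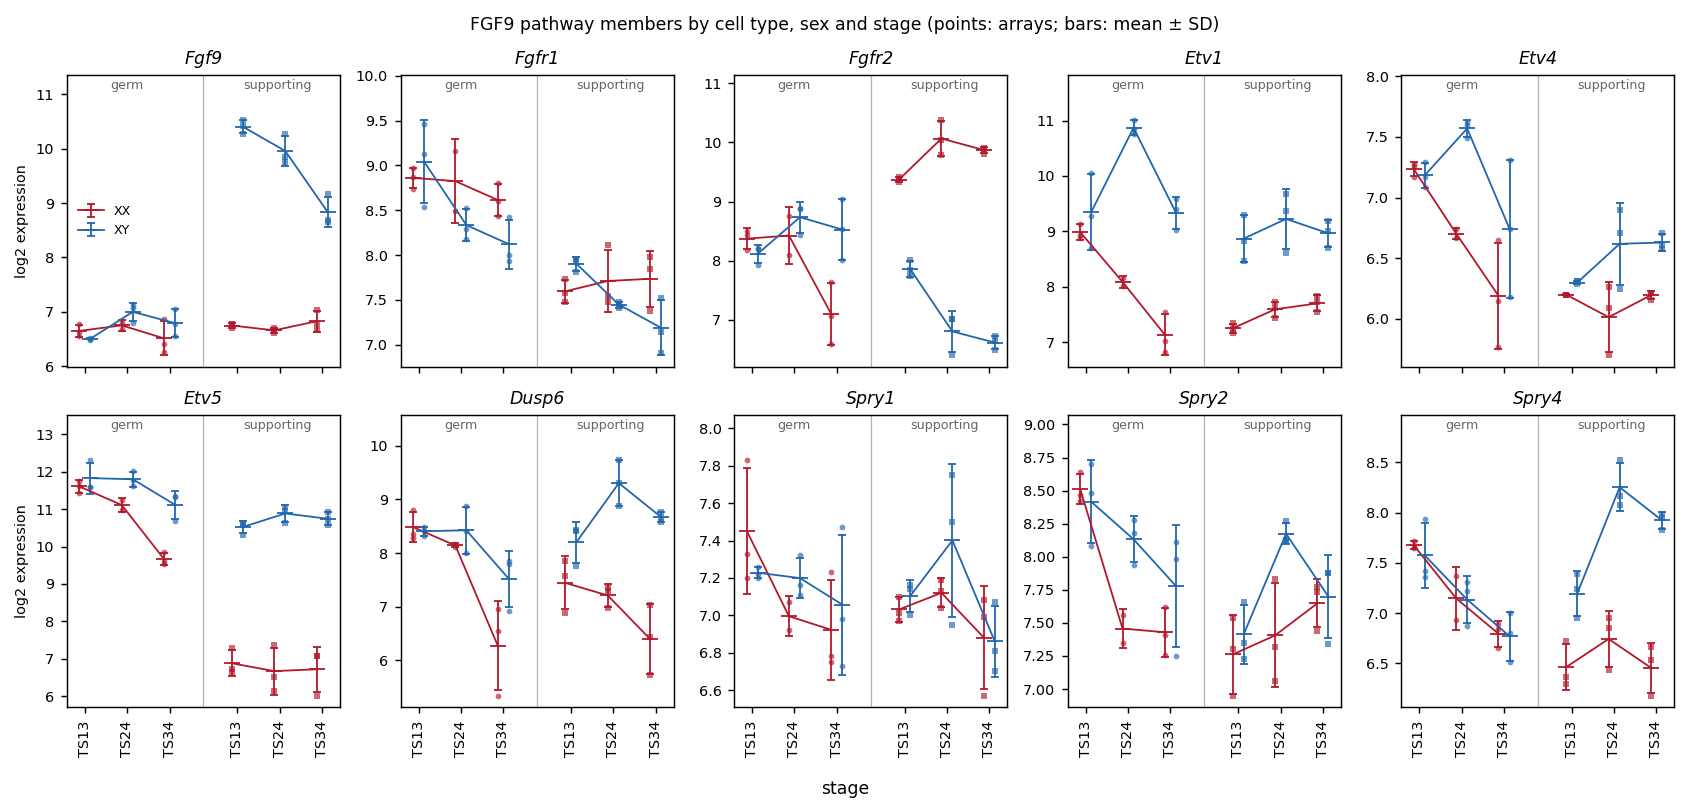
Log2 expression of the 10 genes by stage (TS13, TS24, TS34), with a panel for each gene, points for single arrays, and lines joining group means with bars of 1 SD. Circles are germ cells, squares supporting cells, red XX and blue XY. Fgf9 is above 8.6 on every XY supporting array and below 7.2 on all others, while Etv5 is below 7.4 on every XX supporting array and above 9.5 on all others.

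Before the other genes are taken in turn, the calls over the family were as follows. A gene was called when its limma p, adjusted over all 17571 genes tested, was under 0.05. In supporting cells 5 of the 10 genes differed between XY and XX at TS13 (3.78% of all genes tested), 8 of 10 at TS24 (15.3% of all genes) and 6 of 10 at TS34 (14% of all genes). In each of these 3 comparisons Fgfr2 was the only gene of the 10 called lower in XY. In germ cells 0 of 10 differed at TS13, where 0.0285% of all genes did and where 0 of the 10 had an unadjusted limma p under 0.05. There 2 of 10 differed at TS24 (1.96% of all genes) and 4 of 10 at TS34 (10.5% of all genes), all higher in XY. The median XY minus XX difference over the 10 genes in supporting cells was 0.52, 1.14 and 0.85 at the 3 stages, beside -0.07, 0.04 and -0.01 over all genes. In germ cells it was -0.09, 0.30 and 0.45, beside 0.02, 0.02 and 0.06.

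**Figure D2:**
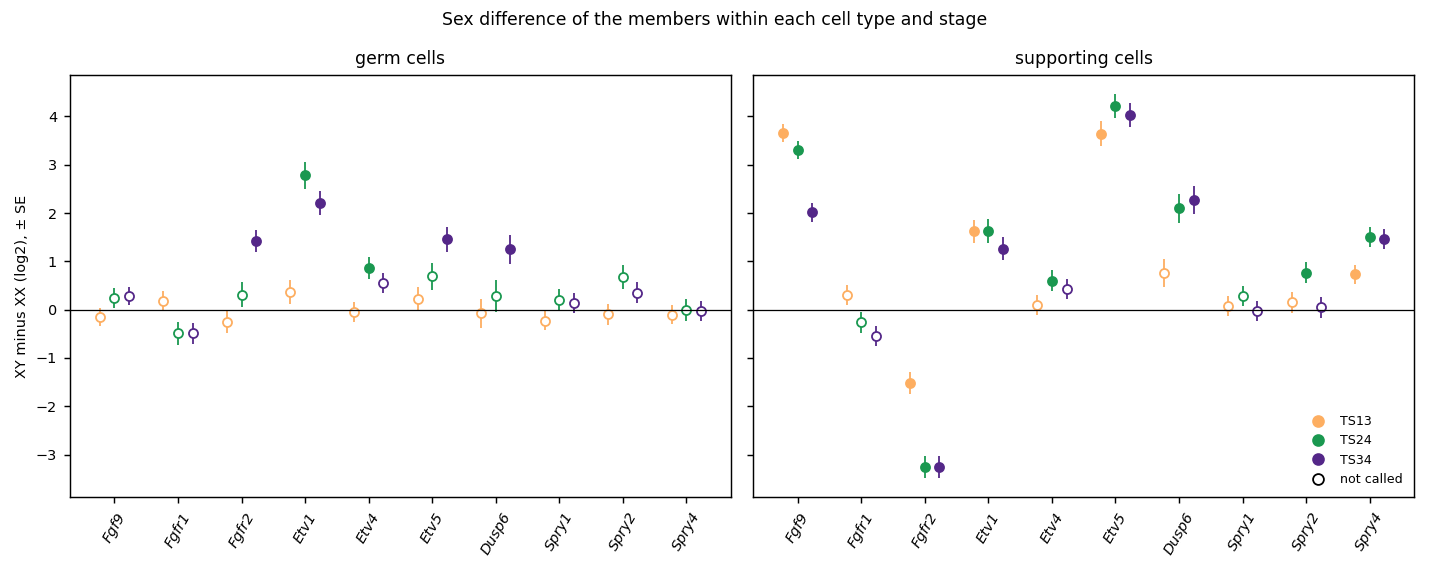
XY minus XX difference in log2 expression of the 10 genes at each stage, in germ cells and in supporting cells, with bars of 1 SE from the fit. Filled points passed limma's adjusted p of 0.05. Fgfr2 lies below 0 in supporting cells and, at TS34, at 1.43 in germ cells, and Etv5 lies at 3.65 or more in supporting cells at every stage.

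Fgfr2, a receptor tyrosine kinase whose loss in the mouse XY gonad impairs Sertoli differentiation, ran against Fgf9 in supporting cells. In XX supporting cells it read 9.33, 9.41 and 9.39 at TS13, 10.04, 10.38 and 9.78 at TS24, and 9.89, 9.81 and 9.91 at TS34. In XY supporting cells it read 7.74, 7.84 and 8.01, then 7.01, 6.40 and 7.01, then 6.64, 6.49 and 6.72. The XX and XY ranges were apart at every stage, and the gap was wider at TS24 and TS34. XY cells differed from XX cells by -1.51, -3.26 and -3.25 in order of stage (SE 0.23 each, limma adjusted p = 5.11e-06, 1.20e-16 and 1.40e-16), that is 2.85-fold, 9.58-fold and 9.55-fold lower in XY. The gap was wider than at TS13, the change being -1.75 at TS24 and -1.74 at TS34 (SE 0.32 each, limma adjusted p = 1.60e-04 and 1.50e-04). XY supporting cells fell by 1.06 from TS13 to TS24 (limma adjusted p = 5.91e-04), across the change of mouse line, and XX supporting cells stood 0.69 ± 0.23 higher at TS24 (limma adjusted p = 0.0901, and 0.0455 without replicate 3 of XX supporting cells at TS24).

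In germ cells Fgfr2 did not differ detectably between the sexes until TS34. XX germ cells read 8.18, 8.51 and 8.43 at TS13, 8.76 and 8.09 at TS24, and 7.64, 6.59 and 7.06 at TS34. XY germ cells read 8.20, 8.21 and 7.93, then 8.90, 8.88 and 8.44, then 8.01, 9.04 and 8.53. At TS34 all 3 XY arrays were above all 3 XX arrays, by 1.43 ± 0.23 (2.69-fold, limma adjusted p = 7.72e-06). This gap came with a fall of Fgfr2 in XX germ cells, which dropped by 1.33 from TS24 to TS34 (limma adjusted p = 4.07e-04), while XY germ cells changed by -0.21 ± 0.23 (limma adjusted p = 0.780). The sex difference in germ cells was larger at TS34 than at TS13 by 1.69 ± 0.32 (limma adjusted p = 5.95e-04). At TS34 the sex difference thus ran in opposite directions in germ and supporting cells, and the difference between them was 4.68 ± 0.32 (limma adjusted p = 6.79e-16).

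Fgfr1, the other receptor followed, was higher in germ than in supporting cells. Its germ arrays lay between 7.93 and 9.46 and its supporting arrays between 6.91 and 8.11. The germ group was above the supporting group in all 6 pairs of the same sex and stage, by 0.88 to 1.26 (limma adjusted p from 3.50e-06 to 9.59e-04). No XY minus XX comparison of Fgfr1 passed the test. At TS34 it read 8.80, 8.60 and 8.44 in XX germ cells and 8.0, 8.43 and 7.93 in XY germ cells, which are just apart, at -0.49 ± 0.22 (limma adjusted p = 0.160, and 0.0363 after quantile normalization). At that stage the supporting cells differed by -0.55 ± 0.22 with overlapping ranges (limma adjusted p = 0.0878), and the difference passed the test after quantile normalization, with each cell type fitted alone, and without XX replicate 2 or XY replicate 3 (limma adjusted p = 0.0366 to 0.0454).

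The promoter windows of 3 genes are shown because Etv5 and Dusp6 were higher and Fgfr2 lower in XY supporting cells at TS24 and TS34. Each is the 250 bases before the annotated start, from RefSeq on GRCm38.p6, on the strand of the gene. Etv5 is at chr16:22439571-22439820 (minus strand), Dusp6 at chr10:99262981-99263230 (plus strand) and Fgfr2 at chr7:130266809-130267058 (minus strand). Capitals mark the letters CGGAAG, the core that ETS factors bind with its usual neighbours, read on either strand.
Etv5: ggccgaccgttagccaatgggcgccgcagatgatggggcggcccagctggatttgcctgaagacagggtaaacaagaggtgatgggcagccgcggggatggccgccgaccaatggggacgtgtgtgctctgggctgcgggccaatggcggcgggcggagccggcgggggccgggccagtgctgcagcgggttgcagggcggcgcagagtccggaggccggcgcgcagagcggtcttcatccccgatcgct
Dusp6: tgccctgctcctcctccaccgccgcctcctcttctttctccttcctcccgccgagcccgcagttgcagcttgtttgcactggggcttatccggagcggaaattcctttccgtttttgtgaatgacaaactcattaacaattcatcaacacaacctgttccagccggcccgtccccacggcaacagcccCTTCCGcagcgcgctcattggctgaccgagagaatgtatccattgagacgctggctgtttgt
Fgfr2: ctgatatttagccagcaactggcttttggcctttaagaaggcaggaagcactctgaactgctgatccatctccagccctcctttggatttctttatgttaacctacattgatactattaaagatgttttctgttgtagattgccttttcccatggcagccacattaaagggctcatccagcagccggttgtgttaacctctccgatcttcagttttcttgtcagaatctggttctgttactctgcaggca
Dusp6 holds the motif once, on the reverse strand as CTTCCG, with its first base 62 bases before the start. The Etv5 and Fgfr2 windows do not hold these letters. Of 9 windows in the table for 7 of the 10 genes, 1 held the motif, beside 13.6% of all 32851 windows of this length. Fgfr1, Etv4 and Spry4 are not among these 7 genes. No window of theirs was read, so whether they hold the motif was not tested. A match is a description of the letters and not of a bound site.

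Etv5, a PEA3 family factor needed in the mouse testis to maintain spermatogonial stem cells, had the widest range of the 10 genes over the groups. In XX supporting cells it read 6.63, 6.72 and 7.28 at TS13, 7.36, 6.50 and 6.14 at TS24, and 7.07, 6.01 and 7.06 at TS34. In XY supporting cells it read 10.61, 10.63 and 10.32, then 11.07, 10.64 and 10.94, then 10.73, 10.58 and 10.92. The XY arrays stayed within 10.32 to 11.07 over the 3 stages and no XX array passed 7.36. The difference was 3.65 ± 0.25 (12.5-fold) at TS13, 4.22 ± 0.25 (18.6-fold) at TS24 and 4.03 ± 0.25 (16.3-fold) at TS34, with limma adjusted p = 3.63e-16, 3.52e-19 and 2.20e-18. Neither stage step of Etv5 passed the test in supporting cells of either sex, although Fgf9 fell between TS24 and TS34 in XY cells.

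In germ cells Etv5 was high in both sexes and parted late. XX germ cells read 11.43, 11.63 and 11.76 at TS13, 10.98 and 11.24 at TS24, and 9.85, 9.53 and 9.61 at TS34. XY germ cells read 11.60, 11.58 and 12.31, then 11.78, 12.01 and 11.61, then 10.68, 11.32 and 11.35. The ranges overlapped at TS13 and were apart at TS24 and TS34. The sex difference was 0.69 ± 0.28 at TS24 (limma adjusted p = 0.212, and 1.38 with adjusted p = 0.0190 when the left-out array is put back) and 1.45 ± 0.25 at TS34 (2.74-fold, limma adjusted p = 3.18e-05). XX germ cells fell by 1.45 from TS24 to TS34 (limma adjusted p = 4.74e-04). With the left-out array put back that step was -0.76 (limma adjusted p = 0.141). The same step in XY germ cells was -0.69 ± 0.25 (limma adjusted p = 0.169), and it passed the test with the mean over all probe sets of a gene (-0.86, 0.0106). The sex difference grew from TS13 to TS34 by 1.23 ± 0.36 (limma adjusted p = 0.0358), a call that was lost with all 36 arrays (0.274) and without any 1 of XX replicates 2 and 3 or XY replicates 1 and 2 at TS13, or of replicates 2 and 3 of either sex at TS34 (0.0639 to 0.112).

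Etv1, another PEA3 factor, peaked in XY germ cells during differentiation. XY germ cells read 9.28, 8.70 and 10.06 at TS13, 10.84, 11.01 and 10.75 at TS24, and 9.02, 9.40 and 9.59 at TS34. XX germ cells read 9.14, 8.94 and 8.88, then 8.16 and 8.01, then 7.54, 6.82 and 7.02. The sexes overlapped at TS13, and at TS24 and TS34 every XY array was above every XX array. XY germ cells rose by 1.52 ± 0.25 to TS24 (limma adjusted p = 4.85e-05) and fell by 1.53 afterwards (limma adjusted p = 3.65e-05). XX germ cells stood 0.90 lower at TS24 than at TS13 (difference -0.90 ± 0.27, limma adjusted p = 0.0946, and 0.0252 after median centring). A further probe set of Etv1, dimmer on average and not used for the calls, averaged 8.29 at TS13 and 8.25 at TS24 there. On the probe set used, XX germ cells fell by 0.96 from TS24 to TS34 (limma adjusted p = 0.0204). With the mean over all probe sets this step was -1.48 (limma adjusted p = 1.07e-04). The call was lost without replicate 1 or 2 at TS24 or replicate 2 or 3 at TS34 (limma adjusted p = 0.0892 to 0.116). The sex difference was 2.78 ± 0.27 at TS24 (6.88-fold, limma adjusted p = 2.14e-10) and 2.21 ± 0.25 at TS34 (4.62-fold, limma adjusted p = 1.79e-09), each larger than at TS13, by 2.42 ± 0.37 and 1.85 ± 0.35 (limma adjusted p = 1.71e-04 and 4.51e-04).

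In supporting cells Etv1 was higher in XY at every stage without a clear peak. XX supporting cells read 7.23, 7.34 and 7.17, then 7.72, 7.44 and 7.61, then 7.55, 7.72 and 7.83. XY supporting cells read 8.83, 8.47 and 9.30, then 9.37, 9.68 and 8.61, then 9.0, 8.70 and 9.19. No XX array reached the lowest XY array of any stage. The difference was 1.62 ± 0.25, 1.63 ± 0.25 and 1.26 ± 0.25 at TS13, TS24 and TS34 (limma adjusted p = 5.23e-06, 7.04e-07 and 9.01e-05). The dimmer probe set of Etv1 gave XY minus XX differences of 2.22, 1.85 and 1.42 in supporting cells. In germ cells it gave -0.01, 2.15 and 2.96. The dimmer probe set of Etv5 gave 2.55, 3.14 and 2.93 in supporting cells and -0.15, 0.77 and 1.21 in germ cells. Both pairs of probe sets therefore ran the same way wherever the sex difference was called.

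Etv4, the third PEA3 factor, moved less. In XY germ cells at TS24 it read 7.60, 7.62 and 7.49 beside 6.74 and 6.67 in XX germ cells, a difference of 0.87 ± 0.24 (limma adjusted p = 0.0356). That call rested on the shared estimate of the spread and on every array, since it was lost with each cell type fitted alone (0.0850) and without any 1 of the 5 arrays (0.0592 to 0.341). Etv4 fell by 0.83 in XY germ cells from TS24 to TS34 (limma adjusted p = 0.0161). Without replicate 1 of XY germ cells at TS34 that step was -0.54 (0.314), and the call was also lost without XY replicate 1 or 2 at TS24 or 3 at TS34 and with all 36 arrays (0.0519 to 0.0681). At TS34 the germ cells differed by 0.55 ± 0.21 (limma adjusted p = 0.0893), past the threshold after quantile normalization (0.0397) or median centring (0.0451) and without replicate 1 of either sex (0.0138 and 0.00588). In supporting cells at TS24 it read 6.71, 6.25 and 6.90 in XY and 6.09, 6.26 and 5.70 in XX, with touching ranges and a difference of 0.60 ± 0.21 (limma adjusted p = 0.0413). This call was lost with all 36 arrays (0.0695) and without XX or XY replicate 1 or 3 (0.0645 to 0.234).

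Dusp6, the phosphatase that removes the activating phosphates from ERK, was called for sex in supporting cells at TS24 and TS34. XY supporting cells read 8.43, 8.42 and 7.76 at TS13, 9.73, 8.88 and 9.31 at TS24, and 8.76, 8.66 and 8.58 at TS34. XX supporting cells read 7.85, 6.89 and 7.58, then 6.97, 7.35 and 7.30, then 6.43, 5.72 and 7.03. The sexes overlapped at TS13, at 0.76 ± 0.30 (limma adjusted p = 0.204), and were apart at both later stages. The difference was 2.10 ± 0.30 at TS24 (4.28-fold, limma adjusted p = 1.66e-07) and 2.28 ± 0.30 at TS34 (4.84-fold, limma adjusted p = 2.47e-08). The growth from TS13 to TS24, 1.335 ± 0.42, was not called (limma adjusted p = 0.0523). It passed the test under some other settings, such as each cell type fitted alone (0.0455). From TS13 to TS34 the difference grew by 1.51 ± 0.42, which was called (limma adjusted p = 0.0186). That call was lost with all 36 arrays (0.0716) and without XX replicate 1 or XY replicate 3 at TS13 or XX replicate 2 at TS34 (0.0773 to 0.131).

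In germ cells Dusp6 fell in XX cells after TS24. XX germ cells read 8.81, 8.36 and 8.28 at TS13, 8.11 and 8.17 at TS24, and 6.54, 6.95 and 5.34 at TS34, a drop of 1.87 over the last step (3.64-fold, limma adjusted p = 1.18e-04). XY germ cells read 8.49, 8.41 and 8.32, then 8.41, 8.87 and 8.0, then 6.92, 7.80 and 7.85, with a last step of -0.90 ± 0.30 (limma adjusted p = 0.0940, and 0.0159 with each cell type fitted alone). Whether the last step differed between the sexes was not tested. At TS34 the lowest XY array was just under the highest XX array, and the sexes differed by 1.25 ± 0.30 (2.37-fold, limma adjusted p = 0.00240). Without XX replicate 3 at TS34, the lowest of the 6 arrays, the difference was 0.78 (limma adjusted p = 0.119). From TS13 to TS34 the sex difference grew by 1.32 ± 0.42, without a call (limma adjusted p = 0.0627). This growth passed the test under some other settings, such as quantile normalization (0.0413).

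Of the Sproutys, membrane-associated inhibitors of signalling from receptor kinases to RAS and ERK, Spry4 followed Dusp6 in supporting cells. XY supporting cells read 6.95, 7.39 and 7.24 at TS13, 8.07, 8.16 and 8.52 at TS24, and 7.99, 7.83 and 7.95 at TS34. XX supporting cells read 6.72, 6.37 and 6.30, then 6.95, 6.85 and 6.43, then 6.18, 6.53 and 6.66. The sexes were apart at each stage. The difference was 0.73 ± 0.20 at TS13 (limma adjusted p = 0.0212), 1.51 ± 0.20 at TS24 (2.84-fold, limma adjusted p = 4.33e-08) and 1.46 ± 0.20 at TS34 (2.76-fold, limma adjusted p = 9.39e-08). The TS13 call was lost without XX or XY replicate 2 or 3 (0.0952 to 0.146). In germ cells the sex difference of Spry4 was -0.01 ± 0.22 at TS24 and -0.02 ± 0.20 at TS34, and the difference between the cell types was called at both stages (-1.52 ± 0.30 and -1.49 ± 0.28, limma adjusted p = 2.25e-04 and 8.99e-05).

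Between the sexes Spry2 passed the test in supporting cells at TS24 only, where XY arrays read 8.12, 8.13 and 8.27 and XX arrays 7.83, 7.06 and 7.32. The difference was 0.77 ± 0.22 (limma adjusted p = 0.00831), and 0.60 without XX replicate 2 (0.100). Germ cells at TS24 differed by 0.67 ± 0.24 with ranges apart but no call (limma adjusted p = 0.139). The sex difference in germ minus supporting cells there was -0.09 ± 0.33 (limma adjusted p = 0.921). In XX germ cells Spry2 read 8.47, 8.64 and 8.42 at TS13 and 7.56 and 7.35 at TS24, a drop of 1.05 (limma adjusted p = 0.0113). The call was lost with all 36 arrays (-0.82, 0.0529), without replicate 2 at TS13 (0.0535) and without replicate 2 at TS24 (0.237). Spry1 lay between 6.57 and 7.83 on all 35 arrays, no neighbouring groups in its order were apart, and none of its 27 comparisons passed the test.

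Stage steps were tested within each cell type and sex. In XX germ cells 1 gene passed the test from TS13 to TS24 (1.21% of all genes tested) and 4 from TS24 to TS34 (8.88% of all genes), and all 5 steps were downward. In XY germ cells 1 passed over the first interval (1.5% of all genes) and 2 over the last (2.73%). In XX supporting cells 0 of 10 passed at either interval, with an unadjusted limma p under 0.05 for 1 gene at each (3.37% and 0.643% of all genes were called). In XY supporting cells 4 passed from TS13 to TS24, across the change of mouse line (16.8% of all genes), and 1, Fgf9, from TS24 to TS34 (1.06%). The 4 were Fgfr2 downward, and Dusp6 by 1.10 ± 0.30, Spry2 by 0.76 ± 0.22 and Spry4 by 1.06 ± 0.20 upward (limma adjusted p = 0.00589, 0.00975 and 1.01e-04). Over this step the median of all genes was itself 0.22 on the deposited scale, and 0.01 after quantile normalization. There Spry4 kept its call, while Dusp6 stood at 0.80 (0.0590) and Spry2 at 0.50 (0.0808). Dusp6 was also lost without XY replicate 3 at TS13 or 1 at TS24 (0.0628 and 0.0754), and Spry2 without XY replicate 2 at TS13 (0.0544). Over the last step in XX germ cells the median of all genes was -0.15 and moved to 0.00 after quantile normalization, under which the 4 falls there (Fgfr2, Etv1, Etv5 and Dusp6) were still called. Quantile normalization also moved the median of all genes from -0.17 to 0.00 over the last step in XY supporting cells, where Fgf9 was still called. It moved it from 0.11 to -0.01 and from -0.14 to 0.00 over the 2 steps in XX supporting cells.

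Genes listed as markers of other cells also moved over the last step in XX germ cells, where 7.02% of all genes were called lower. The mean of 4 erythroid genes was 7.10 to 7.34 at TS24 and 6.17 to 6.56 at TS34, with 1 of 4 called lower (Hbb-y). That of 6 endothelial genes was 6.90 to 7.02 and 6.17 to 6.52, with 2 of 6 called lower (Pecam1 and Tie1). The endothelial mean was lower on XX supporting arrays of these stages, at 6.14 to 6.33 and 5.93 to 6.16. Whether germ cells themselves gave part of the endothelial list's signal was not tested. Of the 8 germ cell genes 3 were called lower (Dnd1, Nanos3 and Tfap2c), and their median step was -0.69. Of the 9 dissociation stress genes tested 2 were called lower (Egr1 and Junb). Egr1, Fos and Ier2 also stand in the list of ERK and FGF response genes used here, so these lists are not separate. Sox9, Dcn and Lhx1 were called lower in the Sertoli, interstitial and mesonephric lists. The part of these markers in the falls of the 10 genes was not tested.

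The change of the sex difference with stage was called for 1 and 3 of the 10 genes in germ cells at TS24 and TS34 against TS13 (0.154% and 3.69% of all genes) and for 1 and 3 in supporting cells (4.51% and 4.88%). The sex difference itself differed between germ and supporting cells for 4 genes at TS13 (1.66% of all genes), 6 at TS24 (9.91%) and 4 at TS34 (12.8%). Fgf9, Fgfr2 and Etv5 were called at all 3 stages, although the Fgfr2 call at TS13 (1.25 ± 0.32, limma adjusted p = 0.0257) was lost with all 36 arrays (0.159) and without any 1 of 7 arrays (0.0538 to 0.0882). The sex difference in germ cells minus that in supporting cells was -3.80, -3.05 and -1.73 for Fgf9 and -3.42, -3.53 and -2.58 for Etv5.

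Germ cells compared with supporting cells of the same sex and stage gave many calls, on a background of 27.9% to 32.4% of all genes. The counts for the 10 genes were 8 at TS13 (30.4% of all genes), 5 at TS24 (27.9%) and 3 at TS34 (30.1%) in XX, and 5 (32.4%), 8 (31.9%) and 5 (28.9%) in XY. Etv5 was higher in germ cells by 4.73 ± 0.25, 4.44 ± 0.28 and 2.95 ± 0.25 in XX (limma adjusted p = 1.61e-21, 1.72e-18 and 3.57e-14). In XY the same difference was 1.31 ± 0.25, 0.92 ± 0.25 and 0.37 ± 0.25 (limma adjusted p = 2.94e-05, 0.00317 and 0.303), and the first of these was 0.87 after quantile normalization (0.00159), which moved the median of all genes there from 0.17 to -0.06 and at TS34 from 0.14 to -0.02. Fgfr2 was lower in germ than in supporting cells in XX, by -1.0, -1.64 and -2.77, and in XY it was 0.25, 1.93 and 1.91 (limma adjusted p = 0.470, 9.03e-10 and 1.33e-09). Dusp6 in germ minus supporting cells was 1.04, 0.93 and -0.12 in XX and 0.20, -0.88 and -1.15 in XY at the 3 stages. The first 2 of the XX values and the last 2 of the XY values passed the test (limma adjusted p = 0.00422, 0.0270, 0.0172 and 0.00178). The XX call at TS13 was lost without replicate 2 of XX supporting cells (0.77, 0.0699). The call at TS24 was lost in XX without either germ replicate or supporting replicate 1 (0.0992 to 0.124), and in XY without germ replicate 3 or supporting replicate 1 (0.127 and 0.133). Spry4 was 1.21, 0.40 and 0.34 in XX, with the first called (limma adjusted p = 2.08e-06), and 0.38, -1.12 and -1.15 in XY, with the last 2 called (limma adjusted p = 1.06e-05 and 6.53e-06).

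Fgf9 in germ minus supporting cells was -0.10, 0.09 and -0.32 in XX, with no call, and -3.90, -2.96 and -2.05 in XY, all called (limma adjusted p = 6.22e-23, 1.61e-18 and 6.78e-13). Etv1 was higher in germ cells in XX at TS13 by 1.74 and in XY at TS24 by 1.65 (limma adjusted p = 6.66e-08 and 2.58e-07). In XX at TS24 it was 0.50 (limma adjusted p = 0.191), and it passed the test with all 36 arrays (0.75, 0.0470) and with the mean over all probe sets (0.88, 0.00667). In XX at TS34 it was -0.57 (limma adjusted p = 0.0762), and it passed the test after quantile normalization or median centring, with the mean over all probe sets, and without germ replicate 1 (0.00214 to 0.0355). In XY at TS13 it was 0.48 (limma adjusted p = 0.143), and it passed the test without germ replicate 2 (0.0116) or supporting replicate 3 (0.0405).

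Etv4 was higher in germ cells in XX at TS13 and TS24, by 1.03 and 0.69, and in XY at TS13 and TS24, by 0.88 and 0.95 (limma adjusted p = 7.33e-05, 0.0213, 6.12e-04 and 2.64e-04). The XX call at TS24 was lost with all 36 arrays (0.49, 0.126) and without either germ replicate or supporting replicate 3 (0.0783 to 0.126). Spry2 was higher in germ cells at TS13, by 1.25 in XX and 1.00 in XY (limma adjusted p = 4.79e-06 and 1.70e-04), and was not called at the later stages. Spry1 ran from -0.20 to 0.42 over the 6 comparisons with no call.

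Over the 6 group means of a cell type, Fgfr2 and Etv5 ran together in germ cells (Pearson r = 0.84) and apart in supporting cells (r = -0.97), as a description over 6 points that share sex, stage and, in part, mouse line. Fgf9 and Etv5 had r = 0.95 in supporting cells and 0.41 in germ cells. Etv5 and Dusp6 had r = 0.97 in germ cells and 0.91 in supporting cells, and Dusp6 and Spry4 had 0.76 and 0.94. The supporting cell values rest on the XX and XY groups standing apart more than on order within a sex.

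**Figure D3:**
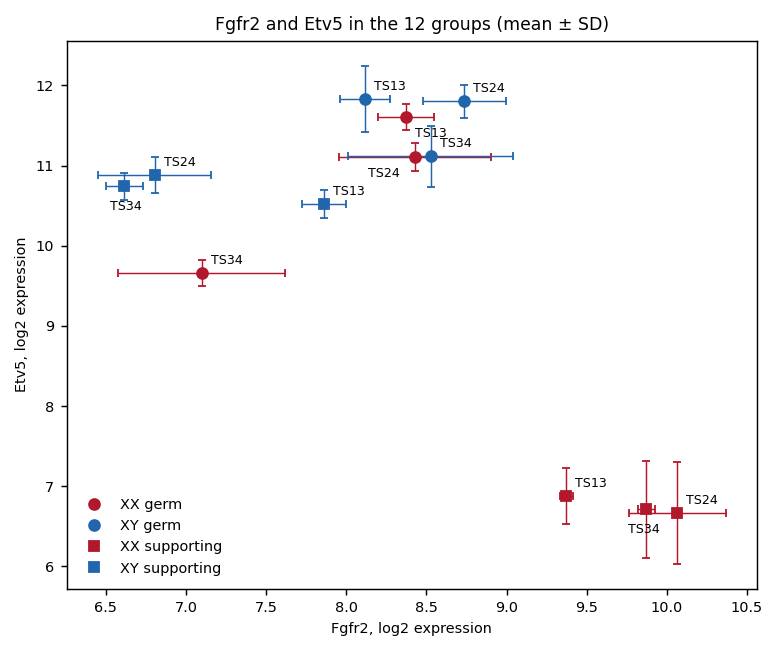
Mean log2 expression of Fgfr2 (horizontal) and Etv5 (vertical) in each of the 12 groups, with bars of 1 SD over 3 arrays (2 in XX germ cells at TS24). Circles are germ cells, squares supporting cells, red XX and blue XY. XX supporting cells lie at high Fgfr2 and low Etv5, XY supporting cells at the reverse, and XX germ cells at TS34 lie below the other germ groups on both axes.

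The rest of the pathway was read from lists of named genes. Beside the counts by sex below, 0.0285%, 1.96% and 10.5% of all genes differed in germ cells at TS13, TS24 and TS34. In supporting cells 3.78%, 15.3% and 14% did. With shares this small in germ cells at TS13 and TS24, a count of 0 in a list is not a result about its genes. Among 19 of 21 other FGF ligands tested, 0 differed by sex in germ cells at TS13 and TS24, and 1 did at TS34, Fgf13 at -1.07. Fgf13 is an intracellular family member that does not act through FGF receptors. In supporting cells it was higher in XY by 0.99 at TS13, 3.72 at TS24 and 4.03 at TS34, and Fgf18, a secreted ligand, by 1.89 at TS24 and 2.37 at TS34 (limma adjusted p = 5.44e-08 and 1.50e-10). Fgf11 was lower at both later stages, by -0.62 and -0.86. No other ligand tested passed the test between the sexes in either cell type. The list median ran from -0.06 to 0.16 over the 6 comparisons, beside -0.07 to 0.06 for all genes.

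Among the 15 receptors and co-receptors beyond Fgfr1 and Fgfr2, 2 were lower in XY supporting cells at every stage. They were Flrt2, a transmembrane protein that binds FGF receptors (-1.22, -1.43 and -0.86), and the heparan sulfate proteoglycan Sdc2 (-0.92, -1.40 and -0.84). At TS24 another 3 were higher in XY supporting cells, among them Gpc3 at 0.91 and Sdc4 at 0.78. In germ cells Sdc4 was higher in XY at TS24 by 1.03 and at TS34 by 1.70, and Gpc4 at TS34 by 1.54. At TS34 3 were lower in XY germ cells, among them Flrt2 at -0.93 and Nrcam at -0.73.

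Of 10 heparan sulfate enzymes tested, Sulf1, which removes sulfate groups that FGFs bind, had the largest sex difference. In supporting cells it was -4.03 at TS24 and -3.00 at TS34 (limma adjusted p = 3.90e-21 and 2.00e-16), and it fell by 3.19 in XY supporting cells from TS13 to TS24, across the change of line. In germ cells at TS34 Sulf1 ran the other way and was called higher in XY. The change of its germ cell sex difference from TS13 to TS34 was also called, upward. Hs6st2, a heparan sulfate sulfotransferase, was lower in XY supporting cells at each stage, by -0.90, -1.28 and -1.49. Glce was higher there at TS13 and TS24, by 1.08 and 0.85. In XY germ cells the chain polymerase subunit Ext1 was higher by 1.20 at TS24 and 1.38 at TS34, while its partner Ext2 and Glce were lower at TS34 by -0.65 and -0.68. In XY supporting cells Ext1 was lower at TS24, by -0.68. In XX germ cells 5 of the 10 enzymes fell and 0 rose from TS24 to TS34, where 7.02% of all genes fell and 1.86% rose. Over all genes 1233 fell and 327 rose there, and 800 and 818 did after quantile normalization.

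Among 12 of 20 adapters and ERK cascade genes that could be tested, Map2k1, the kinase that activates ERK, was higher in XY supporting cells by 0.78, 1.46 and 1.28 at the 3 stages. Rps6ka3, a kinase downstream of ERK, was lower by -0.83, -1.81 and -1.32. In germ cells 0 of the 12 differed at TS13 and TS24 (0.0285% and 1.96% of all genes). At TS34 (10.5% of all genes) Nras was higher in XY by 0.96 and Sos2 and Rps6ka3 lower by -0.85 and -0.62. Gab1, an adapter, fell by 1.33 and Map2k1 by 0.98 in XX germ cells from TS24 to TS34.

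Among 16 other feedback inhibitors, Spred2, a Sprouty-related inhibitor of RAS signalling, was higher in XY supporting cells by 1.02, 1.31 and 2.22 at the 3 stages. At TS34 4 inhibitors were lower there (5.74% of all genes), among them Dusp1 at -1.07, Il17rd at -0.89 and Errfi1 at -0.79. In germ cells at TS34 the ERK phosphatase Dusp4, the FGF receptor inhibitor Il17rd and Spred2 were higher in XY, by 1.21, 1.09 and 0.75, and Dusp9 was lower by -1.55. In XX germ cells 5 of the 16 fell between TS24 and TS34, where 7.02% of all genes fell and 1.86% rose. Among the 5 were Dusp4, by 1.55, and Il17rd, by 1.03, while Nf1 rose by 1.48.

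Of 18 other ETS factors 0 differed in germ cells at TS13 and TS24, where 0.0285% and 1.96% of all genes did. At TS34, where 10.5% of all genes did, Etv6, Elf1 and Erg were higher in XY by 0.98, 0.77 and 0.66. In supporting cells Etv6 was lower in XY at all 3 stages (-1.02, -0.95 and -0.78), Elk3 higher at TS13 and TS24 (1.29 and 0.62), and Ets1 lower at TS24 and TS34 (-1.07 and -1.19). None of these differences reached those of Etv5 in the same cells. Among 14 of 15 other ERK and FGF response genes tested, 2 were higher in XY supporting cells at TS13 (Ccnd1 by 1.42 and Cxcr4 by 1.00), 1 at TS24 (Nr4a1 by 1.67) and 1 at TS34 (Nr4a1 by 1.14), where Fos and Phlda1 were lower by -1.38 and -1.02. In germ cells Shisa2 was lower in XY by -0.80 at TS24 and Ccnd1 by -1.41 at TS34.

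Of 8 genes on which FGF9 is known to bear in the fetal gonad, 4 differed in supporting cells at each stage (3.78%, 15.3% and 14% of all genes). These 4 also stand in the Sertoli and pregranulosa marker lists used here, so they are not separate from those cell type markers. Sox9 was higher in XY by 3.23, 2.75 and 2.30, although Sox9 was also the gene reported in the mice used for the later XY groups. Ptgds, which makes a prostaglandin that upholds Sox9, was higher by 1.30, 3.12 and 3.52, while Wnt4 was lower by -1.18, -1.20 and -1.12 and its partner Rspo1 by -1.15, -2.49 and -2.19. In germ cells Stra8, the gatekeeper of meiotic entry, was lower in XY by -1.75 at TS24 and -4.65 at TS34, and Nanos2, an RNA-binding factor of male germ cells, was higher by 3.90 at TS34. Stra8 had risen in XX germ cells by 2.31 from TS13 to TS24 and by 2.75 from TS24 to TS34.

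**Figure D4:**
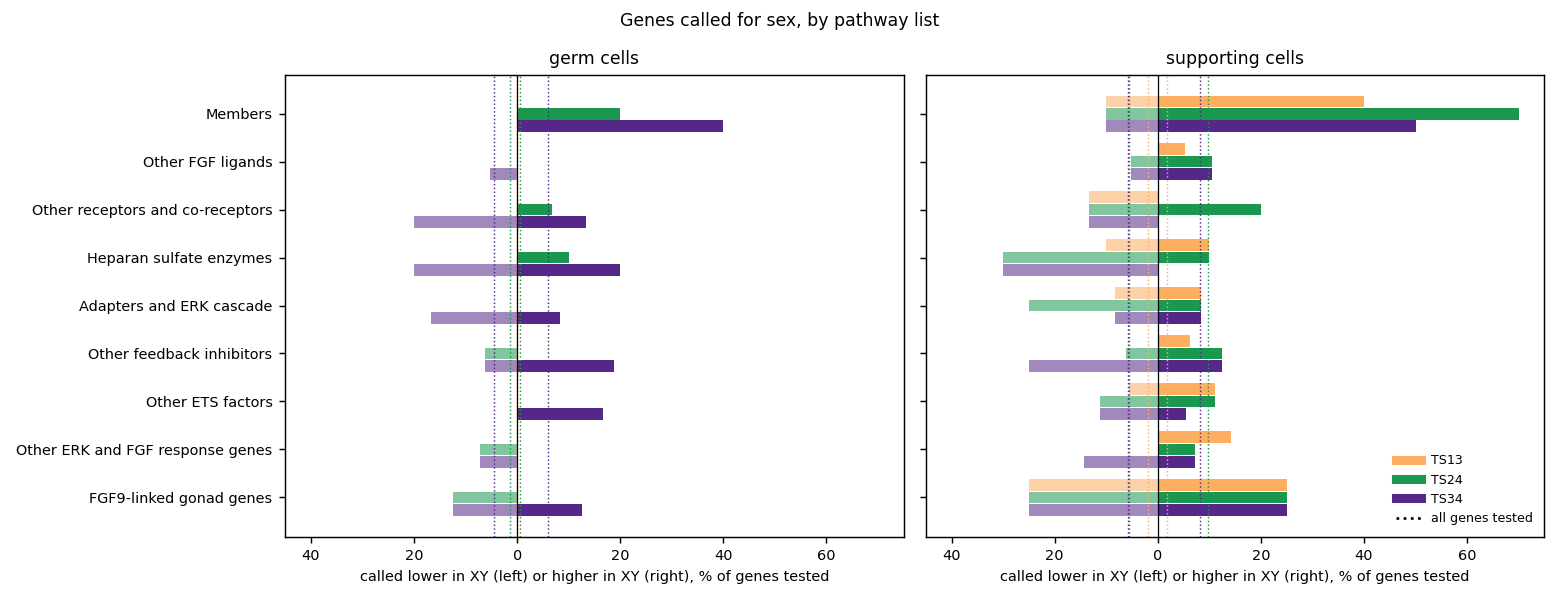
Share (%) of the 10 genes (the row named members) and of each list's tested genes called lower (left of 0) or higher (right of 0) in XY than in XX by limma, in germ and supporting cells, coloured by stage. Dotted lines give the same shares over all genes tested, and at TS13 no listed gene was called in germ cells.

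Markers of other cells moved with some of these differences. In XY germ cells the mean of 6 Sertoli genes was 7.08 to 7.48 at TS24 and 7.02 to 7.51 at TS34, beside 6.76 to 6.82 and 6.49 to 6.78 in XX germ cells. Of the 6 genes Cst9 was called at both stages (2.89 and 3.2), and Amh stayed at 6.48 or below in XY germ cells, while XY supporting arrays of those stages read 9.66 to 10.18 for it. Fgf9 was 2.05 or more higher in XY supporting than in XY germ cells at every stage. Between XY and XX germ cells it differed by -0.14, 0.25 and 0.28 at TS13, TS24 and TS34, with no call. Whether a small share of Sertoli cells would show in Fgf9 was not tested. Lhx1, listed here with mesonephric epithelium, was higher in XY germ cells by 1.64 at TS24 and 1.76 at TS34. The mean of all 5 genes of that list was 7.43 to 7.57 in XY and 7.04 to 7.33 in XX germ cells at TS24. At TS34 it was 6.83 to 7.54 and 6.53 to 6.98, which overlap. The germ cell list itself held 3 genes called higher (Nanos3, Dnd1 and Pou5f1) and 1 lower (Kit) in XY germ cells at TS34. Of all genes 6.04% were called higher and 4.46% lower there. The part of these markers in the germ cell differences was not tested.

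In supporting cells 4, 6 and 6 of the 6 Sertoli genes were higher in XY at the 3 stages (1.84%, 9.75% and 8.24% of all genes). Of the 6 pregranulosa genes 5 were lower at each (1.94%, 5.58% and 5.74% of all genes). All 4 fetal Leydig cell genes tested were higher in XY at TS34, where their mean was 6.91 to 7.21 beside 5.66 to 5.74 in XX. Of the interstitial genes Pdgfra was higher and Nr2f2 lower in XY at TS13 and TS24. At TS34 4 of 9 dissociation stress genes (Atf3, Fos, Fosb and Zfp36) were lower in XY. Fos is the same gene given above among the ERK and FGF response genes. Erythroid Alas2 was higher in XY at TS24 and TS34, and Hba-x at TS24. The part of these markers in the supporting cell differences was not tested.

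Genes with the pattern most like that of each member were sought among all other genes tested, by Pearson r over the 12 group means, which share sex, stage and cell type. Fgf9 was most like Ppargc1a (r = 0.990), Ppp1r3c (0.983) and St3gal4 (0.973). Etv5 was most like Cemip2 (0.977), Rrm1 (0.964) and Lrrc8d (0.964), and Fgfr2 like Bag3 (0.951), Mxra8 (0.949) and Gpr55 (0.944). Etv1 was most like Mb21d2 (0.959), Tnks2 (0.954) and Ntsr1 (0.931). Dusp6 was most like Xpnpep1 (0.954), Sox13 (0.952) and Tpd52 (0.933), and Spry4 like the pathway's own Map2k1 (0.957), Minpp1 (0.955) and Colgalt1 (0.948). For Fgfr1 the 3 were Lrrc34 (0.962), Ccne1 (0.958) and Dcdc2a (0.950), and for Etv4 Uqcrq (0.972), Ssr1 (0.963) and Rnf26 (0.963). For Spry2 they were Timm13 (0.945), Dda1 (0.923) and Rab35 (0.922), and for Spry1 Pianp (0.966), Vmn1r40 (0.953) and Gm5420 (0.951). Spry1 had no called comparison, so its pattern is not established. The group means of Vmn1r40 (4.97 to 5.42) and Gm5420 (5.24 to 5.65) lay near the 25th percentile of an array (5.17 to 5.6).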

How the data were processed

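Expression was read from the deposited value table, whose values are log2 probe set signals made by the authors with RMA (background correction, normalization and summary of probes), per the submitters' processing notes; the version is not given in the sources used here. Probe sets were named from the platform annotation with symbols updated to RefSeq: 21789 of 35557 had 1 symbol, 1621 several and 12147 were not listed there. The brightest probe set stood for each of 19938 genes.

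Genes above the 25th percentile of an array on at least 3 arrays were tested (17571). One mean per group was fitted over 35 arrays with limma 3.58.1 in R 4.3.3 (lmFit, eBayes), for 27 comparisons, with Benjamini-Hochberg adjustment over all genes tested, and the fit was tested on simulated data. The array labelled XX germ cells at TS24, replicate 3, was left out because it held a somatic profile. The number of arrays limits the precision: between groups of 3 arrays, differences had a median SE of 0.211.

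The 10 genes and the gene lists were chosen with earlier results of these data known. By rule the text names the 10 genes, at most 4 called genes of a list by size of difference, and the 3 genes most like each member. Only the 250 bases before each start were read for promoters. Alternatives covered the arrays used, scaling, filters, probe sets, the samples in the fit, an intensity trend and a replicate block.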

Additional observations from a re-analysis of the deposited data

Results flagged for a closer look

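Differences between groups under the same contrast were tested with interaction terms in limma, and those that passed are given with no explanation. In germ cells the sex difference (XY minus XX, log2) exceeded that at TS13 by 2.42 for Etv1 at TS24, and at TS34 by 1.69 for Fgfr2, 1.85 for Etv1 and 1.23 for Etv5. In supporting cells it changed from TS13 by -1.75 for Fgfr2 at TS24, and at TS34 by -1.65 for Fgf9, -1.74 for Fgfr2 and 1.51 for Dusp6.

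The sex difference in germ cells minus that in supporting cells at TS13 was -3.80 for Fgf9, 1.25 for Fgfr2, -1.26 for Etv1 and -3.42 for Etv5. At TS24 it was -3.05 for Fgf9, 3.57 for Fgfr2, 1.15 for Etv1, -3.53 for Etv5, -1.81 for Dusp6 and -1.52 for Spry4. At TS34 it was -1.73 for Fgf9, 4.68 for Fgfr2, -2.58 for Etv5 and -1.49 for Spry4. The Etv1 calls at TS13 and TS24 were lost with all 36 arrays (limma adjusted p = 0.162 and 0.155). At TS13 the call was also lost with an intensity trend (0.0511) and without any 1 of 10 arrays, namely every TS13 array other than germ XY replicate 3 and supporting XY replicate 2 (0.0601 to 0.204). At TS24 the value was 0.72 with the mean over all probe sets (0.214), and the call was lost without germ replicate 1 or 2 of either sex, supporting XX replicate 1 or 3, or supporting XY replicate 3 (0.0504 to 0.154). Germ and supporting cells came from different mouse lines, so cell type and line cannot be told apart in these values.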

How the results depend on the processing

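Of 270 differences of the 10 genes, 94 were called, 81 of them under every setting other than leaving out an array and 74 under every setting run, and 0 called values changed sign. Counts of called genes moved by more than 1.5 times in 3 results. Between XX and XY germ cells at TS24 the count went from 2 to 1 with each cell type fitted alone, and was 1 to 1 when an array was left out. Over the XX germ cell steps it went from 5 to 3 with all 36 arrays, and ran from 3 to 6 when an array was left out. Over the XX supporting cell steps it went from 0 to 1 with each cell type fitted alone, and ran from 0 to 1 when an array was left out. The cause was not tested. Deviations from group means had a median r of -0.01 between same-numbered arrays of different groups (187 pairs, from -0.51 to 0.52). Arrays with different numbers had a median of 0.003. The pairs were taken over all groups, so they cannot tell whether XX and XY arrays of the same line and stage were paired. With the replicate block the counts stayed at 2, 5 and 0 for these results, and none of the 13 counts moved. Quantile normalization moved the median of all genes by over 0.1 in 5 stage steps and in XY germ minus supporting cells at TS13 and TS34, as given beside those results. It also moved it from 0.09 to -0.02 for the sex difference in germ minus supporting cells at TS13, and from 0.07 to -0.04 for XX germ minus supporting cells at TS13. Small differences are limited by 3 arrays a group and 2 in XX germ cells at TS24.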

Other observations

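The left-out array labelled XX germ cells at TS24 read 6.81 for Fgf9, 8.44 for Fgfr1, 9.59 for Fgfr2, 8.83 for Etv1, 6.09 for Etv4 and 9.03 for Etv5. It read 8.86 for Dusp6, 7.72 for Spry1, 8.16 for Spry2 and 7.0 for Spry4. On it the interstitial genes Pdgfra and Nr2f2 read 10.60 and 10.47.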
